A study of Homo sapiens with 15 samples.

Results

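The type I interferon response genes described here are 42 listed human genes that cover the interferon receptor, the transcription factors that act below it and the genes they induce. Members were all probe sets of the array that its annotation assigns to 1 of these genes and to no other. That gave 71 probe sets of 41 genes, out of 54613 non-control probe sets on the array. Another 2 probe sets, shared by IFITM2 with IFITM1 and by RNF31 with IRF9, were left out by this rule, and STAT2 was not analysed here. There were 22 genes with 1 probe set and 19 with several, up to 5 for SP110.

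The cells were THP-1, an established human monocytic leukaemia line. They were exposed for 6 h or 24 h to infliximab (IFX), a chimeric monoclonal antibody against tumour necrosis factor (TNF), or for 6 h or 24 h to CDP870, a PEGylated antibody fragment against the same cytokine that lacks the Fc part. Controls received no treatment and were taken at 0 h. The labels state no dose. Each of the 5 groups (infliximab 6 h, infliximab 24 h, CDP870 6 h, CDP870 24 h, untreated 0 h) had 3 arrays, described by the submitters as biological replicates. Because all untreated cells were taken at 0 h, agent and time in culture cannot be told apart in any comparison with them, while infliximab and CDP870 can be compared at matched times. Being 1 cell line, THP-1 gives no measure of variation between donors, and p-values measure only the spread between these arrays.

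Type I interferons bind a receptor built from the IFNAR1 and IFNAR2 chains. Signalling through the receptor's kinases leads to a complex with IRF9 that binds the interferon-stimulated response element in promoters. The induced genes include sensors of viral RNA, enzymes and membrane proteins that restrict viruses, the ubiquitin-like protein ISG15 with its conjugation machinery, and transcription factors such as IRF7 that feed back on interferon production. In monocytic cells the programme is known to follow viral infection, sensing of nucleic acids and interferon added from outside.

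All values are log2 probe set values, which have no unit of amount, so differences between groups can be read and levels of different probe sets cannot be set against each other. Whether RNA per cell or the share of cells expressing a gene differed cannot be told apart in these bulk samples. A probe set was tested if it lay above its array's own median on at least 3 of the 15 arrays. This held for 52 of the 71 member probe sets, in 34 genes. A probe set is described as called, and as higher or lower, if its adjusted p was under 0.05 in limma over all 28897 tested probe sets of the array. Errors beside differences are standard errors of that fit.

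Some arrays stood apart from the rest. Infliximab 24 h replicates 5 and 6 and untreated replicate 3 had the lowest mean correlations with the other arrays (0.973, 0.979 and 0.981, across probe sets). Infliximab 24 h replicate 7 correlated at 0.994 to 0.995 with the infliximab 6 h arrays, against 0.971 to 0.982 among the arrays of its own group. The time label of replicate 7 could be wrong, which could not be checked from the labels or the values. Every 24 h value of infliximab includes this array unless stated. Replicates 5 and 6 also correlated best with a 6 h infliximab array, at 0.978 and 0.983, against at most 0.976 and 0.982 in their own group. The mean of the hybridisation spike-ins was 7.75 ± 0.04 on the infliximab 6 h arrays, against 7.50 ± 0.12 with CDP870 at 6 h and 7.38 ± 0.13 on the untreated arrays (SD, n = 3 each). The monocytic marker list was measured as present. Of its 12 genes 10 had a probe set, and 9 were above the array median on all 15 arrays. CSF1R and CD4 of this list were higher with infliximab at 24 h than in untreated cells (0.73 and 0.65, adjusted p = 0.0389 and 0.04). Over all tested probe sets 3.78% were higher in that comparison. No monocytic marker was called at 6 h of infliximab, with CDP870 or between the agents. Of 7 epithelial markers, 4 were higher with infliximab at 6 h and 5 at 24 h than in untreated cells. The summed level of the epithelial list was 42.62 to 43.84 with infliximab at 6 h and 43.09 to 43.64 at 24 h, 37.09 to 39.22 with CDP870 at 6 h and 37.90 to 38.23 at 24 h, and 39.77 to 41.30 in untreated cells. Of the list's 7 genes, 6 were above the array median on all 15 arrays and CDH1 was above it on none. Against CDP870, 5 were higher with infliximab at each time, by 0.87 to 1.21 at 6 h and 0.85 to 1.13 at 24 h. Over all tested probe sets 5.1% and 4.73% were higher in these comparisons. Of the markers of other blood cells, 2 of 5 T cell, 3 of 5 B cell, 3 of 4 natural killer cell and 2 of 4 plasmacytoid dendritic cell genes were above the array median on all arrays, while CD3G, CD2, MS4A1, KLRD1 and CLEC4C were above it on none. PAX5 of the B cell list and NKG7 of the natural killer list were lower with infliximab at 6 h than in untreated cells (-0.53 and -0.40, adjusted p = 0.0179 and 0.0495). The part that epithelial gene levels or spike-in levels have in the differences below was not tested beyond the fits that are given.

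A subset of the interferon response genes was higher in infliximab-treated cells, and in the fit just described none of the tested probe sets was lower. Some alternative fits called probe sets of IRF3, IRF5 and IFNAR1 lower at 6 h, as given with those genes. With infliximab at 6 h, 11 of the 52 tested member probe sets, in 8 genes, were higher than in untreated cells and 0 were lower. Over all tested probe sets 8.42% were called in that comparison, 4.02% higher and 4.4% lower. The median difference of the members was 0.11, against -0.04 over all tested probe sets. With infliximab at 24 h, 7 member probe sets in 6 genes were higher and 0 lower, against 6.57% called over all (3.78% higher and 2.79% lower). Centring each array on its median turned the 24 h split over all probe sets from 1092 higher and 807 lower into 1333 higher and 522 lower. The members' median difference was 0.16, against -0.02 over all.

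CDP870 gave no calls. At 6 h 0 of 52 member probe sets passed, where 0.0% of all probe sets did, and 4 of the 52 had an unadjusted limma p under 0.05, against 4.68% of all. At 24 h the count was again 0, with 0.0% called over all, 5 members at an unadjusted p under 0.05 and 4.7% of all. Both counts were 0 under every alternative setting run. Differences from untreated cells ran from -0.37 (IFNAR2, 204786_s_at) to 0.35 (PARP9, 227807_at) at 6 h and from -0.28 (BST2) to 0.36 (IFNAR1, 225661_at) at 24 h. The 95% intervals of single probe sets extended to a median of 0.29 on either side of the difference at both times, and the widest reached from -0.67 to 0.80 at 6 h and from -0.69 to 0.76 at 24 h.

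The direct comparison of the agents takes the difference without the untreated arrays, which enter its p-values through the shared estimate of the spread and the filter. At 6 h, 14 member probe sets in 11 genes were higher with infliximab than with CDP870 and 0 were lower, against 9.07% called over all (5.1% higher and 3.98% lower). At 24 h, 12 probe sets in 11 genes were higher and 0 lower, against 6.51% called over all (4.73% higher and 1.79% lower). In fits to only the arrays compared, 14 of 14 calls were kept at 6 h and 3 of 12 at 24 h. The members' median difference between the agents was 0.13 at 6 h and 0.20 at 24 h, against -0.03 and 0.00 over all tested probe sets. Comparisons with untreated cells share the same 3 untreated arrays, and each agent's values are therefore given side by side for a probe set of each called gene.

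Over these 6 comparisons 16 genes had a called probe set. The share of all tested genes with a call in any of the 6 was not computed, so this count has no background beside it. The 16 genes are named here to say which are described below. They were IFI16 and XAF1, with the largest differences, and IFIT5, IFIT3, IFIH1, IFI35, IFI6, LGALS3BP, TRIM22, IRF1, IRF7, IRF9, IFITM1, IFITM2, IFITM3 and IFNAR1. The other 18 tested genes were called in none, among them ISG15, MX1, OAS1, IFI27 and IFNAR2. For 3 tested probe sets (IFIT5 203595_s_at, OAS1 202869_at and IFI27 202411_at) every array above the median was an infliximab array, so these 3 entered the counts through the infliximab groups alone. IFITM1 214022_s_at was above it on 3 infliximab arrays at each time, 2 untreated arrays and no CDP870 array. It therefore also needed infliximab arrays to pass, as did MX1, above it on 3 arrays of which 1 was an infliximab array. Without any filter, 10 of all 71 member probe sets were higher with infliximab at 6 h and 6 at 24 h than in untreated cells, against 1.71% and 1.57% of all probe sets. Against CDP870 the counts were 13 and 10, with 2.33% and 2.07% over all.

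**Figure D1:**
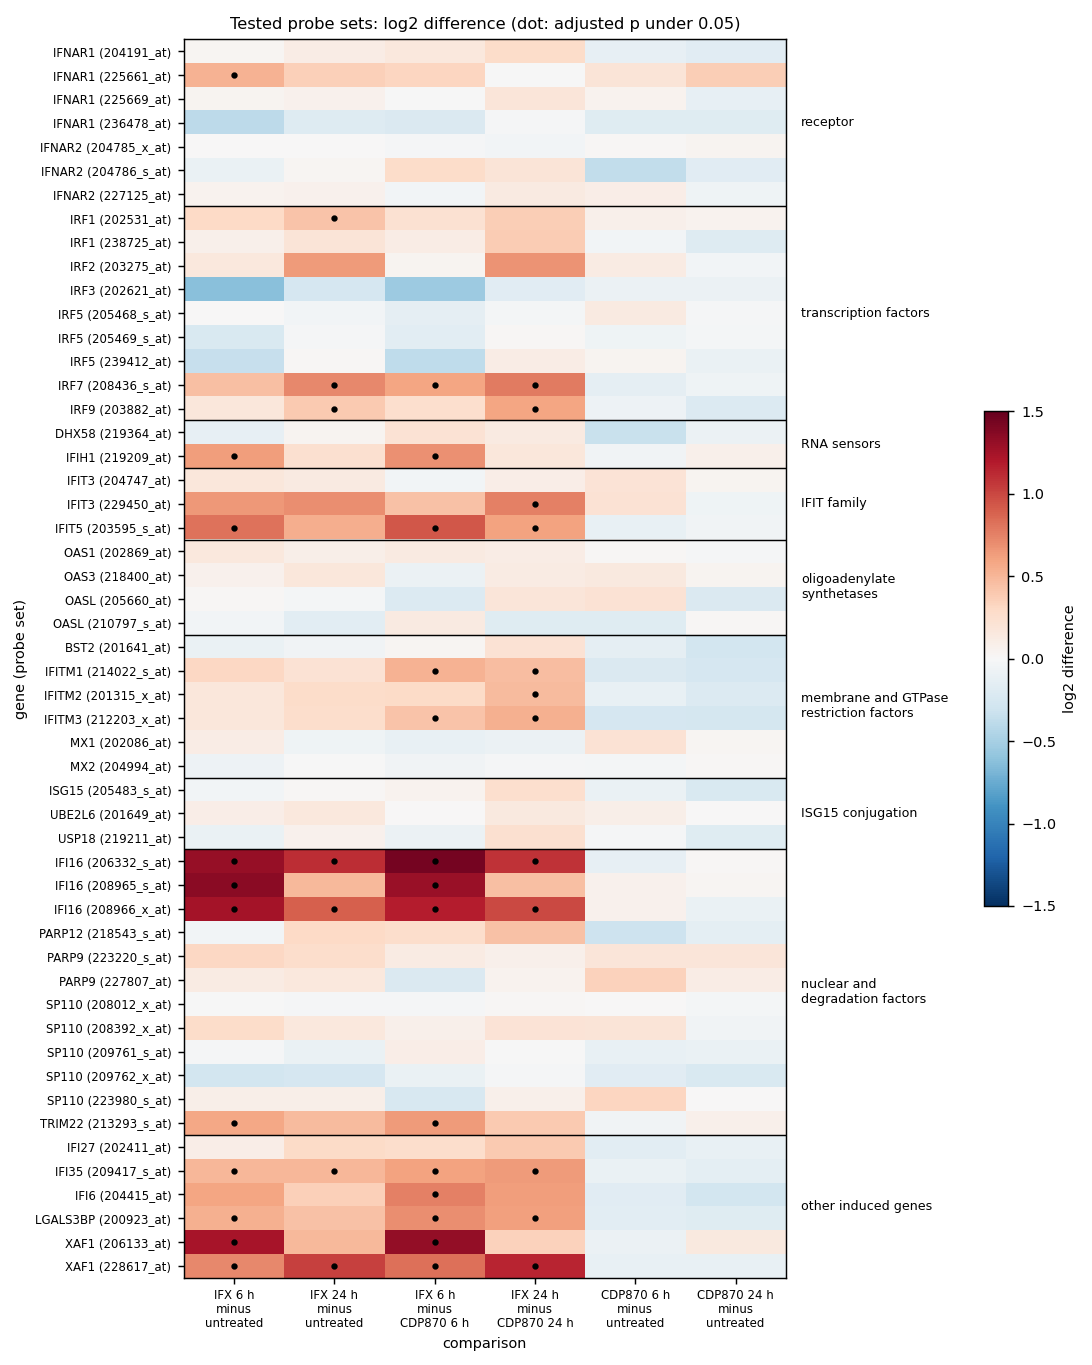
Log2 differences of the 52 tested member probe sets (rows, grouped by role) in 6 comparisons (columns). Red is higher in the group named first, blue is lower, and a dot marks an adjusted limma p under 0.05. Dots lie only in the 4 infliximab columns and only on red cells, most of them on rows of IFI16, XAF1, IFI35, LGALS3BP, IFIT5 and IRF7.

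Because several of these genes moved together, the promoters were read for the core of the interferon-stimulated response element, taken as GAAA, any 2 bases and GAAA again, on either strand, where matches may overlap. RefSeq windows on GRCh38.p14, from 250 bases before to 50 bases after the annotated transcript start, were available for 29 of the 41 genes. A match was present for 19 of these 29 genes, against 4.38% of all 27305 gene symbols with a window and 3.57% of all 35116 windows. Among called genes 7 of 13 had a match, among tested genes that were not called 7 of 11, and among genes that were not tested 5 of 5. These shares were not tested against each other. The 120 bases before the start are printed for 4 called genes with different numbers of matches in the window (IFIT5 and IFIH1 with 3, LGALS3BP with 1 and IFI35 with 0) and for ISG15, which had 2 and was not called. Capitals mark the matches, and each sequence runs 5′ to 3′ on the strand of the gene, so that a match on the opposite strand reads as TTTC, 2 bases and TTTC.
IFIT5: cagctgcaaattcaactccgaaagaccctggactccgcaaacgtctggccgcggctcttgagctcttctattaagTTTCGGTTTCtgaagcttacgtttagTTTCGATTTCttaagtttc
IFIH1: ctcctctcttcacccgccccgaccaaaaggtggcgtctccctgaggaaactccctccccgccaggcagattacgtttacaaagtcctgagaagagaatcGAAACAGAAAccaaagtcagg
LGALS3BP: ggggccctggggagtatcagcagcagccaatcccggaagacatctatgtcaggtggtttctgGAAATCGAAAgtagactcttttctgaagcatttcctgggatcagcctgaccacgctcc
IFI35: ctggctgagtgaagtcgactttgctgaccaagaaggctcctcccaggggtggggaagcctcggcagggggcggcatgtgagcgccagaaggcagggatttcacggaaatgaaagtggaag
ISG15: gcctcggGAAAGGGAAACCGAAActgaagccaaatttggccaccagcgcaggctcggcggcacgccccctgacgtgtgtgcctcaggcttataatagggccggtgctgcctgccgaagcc
The stretches lie at chr10:89414448-89414567 on the plus strand for IFIT5, chr2:162318685-162318804 on the minus strand for IFIH1, chr17:78979924-78980043 on the minus strand for LGALS3BP, chr17:43006664-43006783 on the plus strand for IFI35 and chr1:1013377-1013496 on the plus strand for ISG15. IFIT5 has 2 of its 3 matches in the printed stretch and IFIH1 has 1 of its 3. The matches of ISG15 overlap by 4 letters. The windows of IFI16, XAF1, IRF9, IRF1, IFNAR1 and IFI35 held no match to these letters.

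**Figure D2:**
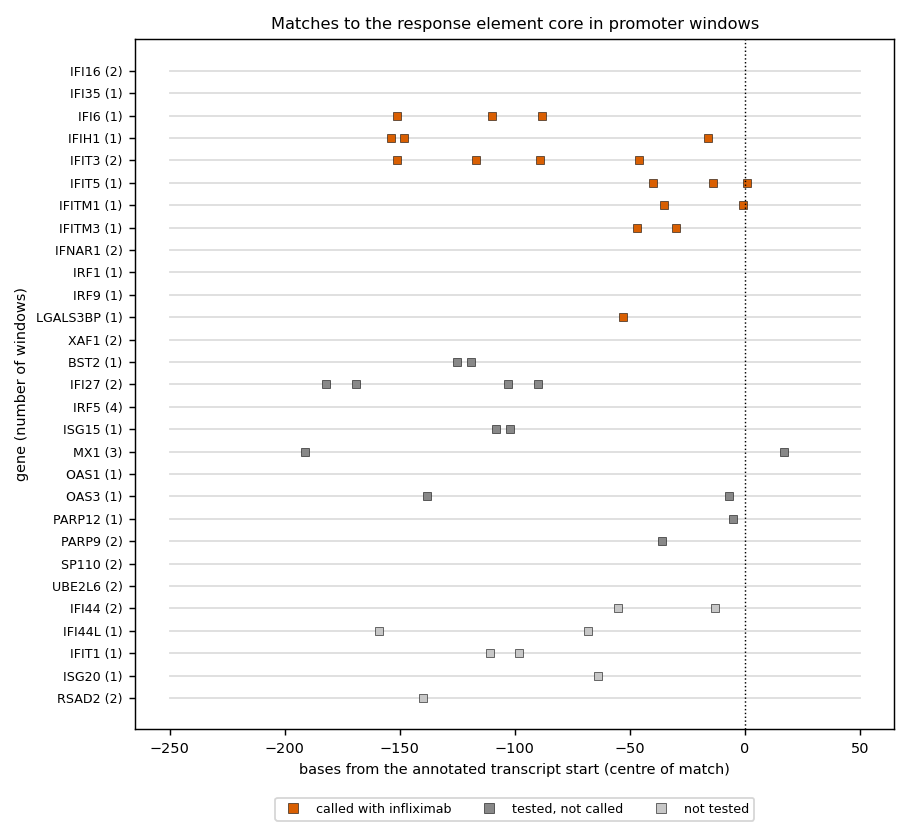
Positions of matches to the response element core (squares, at the centre of each match) in the promoter windows of 29 member genes, in bases from the annotated transcript start (dotted line). Genes called with infliximab are at the top in orange, tested genes that were not called below them in dark grey and genes that were not tested at the bottom in light grey; matches occur in 7 of 13, 7 of 11 and 5 of 5 genes of these classes.

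At the receptor, 1 of 7 tested probe sets was called, with infliximab at 6 h against untreated cells, where 4.02% of all were higher. IFNAR1, the receptor chain that binds the kinase TYK2, read 5.30, 5.13 and 5.37 (225661_at) with infliximab at 6 h and 4.99, 5.04 and 5.27 at 24 h. The same probe set read 5.12, 4.75 and 4.95 with CDP870 at 6 h, 5.03, 5.26 and 5.04 at 24 h, and 4.73, 4.51 and 5.00 in untreated cells. Untreated replicate 3 was the lowest of all. At 6 h of infliximab the values lay above all untreated ones, with a difference of 0.52 ± 0.14 (adjusted p = 0.0288), against 0.19 for CDP870 at 6 h and 0.36 at 24 h. Without the 3 arrays that stood apart the infliximab difference was 0.40 and was not called (adjusted p = 0.0733). The other 3 IFNAR1 probe sets differed by 0.03, 0.04 and -0.40 at 6 h of infliximab and were not called, so the probe sets of this gene disagreed. The one at -0.40 (236478_at) was called lower without infliximab replicate 10 (-0.50, adjusted p = 0.0473) and without untreated replicate 4 (-0.51, adjusted p = 0.0378). IFNAR2, the chain that carries most of the ligand affinity and binds JAK1, was not called in any comparison. Its 3 probe sets differed by -0.10 to 0.06 with infliximab at 6 h and by 0.00 to 0.06 at 24 h from untreated cells.

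Among the transcription factors, IRF9, IRF7 and IRF1 had a call. Of their 9 tested probe sets, 0 were higher with infliximab at 6 h than in untreated cells and 3 at 24 h. Over all tested probe sets 4.02% and 3.78% were. Against CDP870, 1 was higher at 6 h and 2 at 24 h, with 5.1% and 4.73% over all. IRF9, a DNA-binding subunit of the complex at the response element, read 5.64, 5.60 and 5.58 with infliximab at 6 h and 5.81, 5.84 and 5.83 at 24 h. It read 5.35, 5.43 and 5.30 with CDP870 at 6 h, 5.34, 5.22 and 5.14 at 24 h, and 5.40, 5.56 and 5.34 in untreated cells. The 24 h infliximab arrays were the highest of all 15 and lay close together. IRF9 was higher with infliximab at 24 h than in untreated cells by 0.39 ± 0.09 (adjusted p = 0.0135) and than with CDP870 by 0.59 ± 0.09 (adjusted p = 0.000762). At 6 h it differed by 0.17 from untreated cells (adjusted p = 0.24) and by 0.25 from CDP870 (adjusted p = 0.0881). The 24 h call against untreated cells was lost without untreated replicate 2 (0.38, adjusted p = 0.0513) or replicate 4 (0.35, adjusted p = 0.0554), and the 6 h difference from CDP870 was called in 3 of the alternative fits, at 0.24 to 0.25.

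IRF7, a factor that drives interferon-alpha genes after its own induction, read 5.01, 4.87 and 4.79 with infliximab at 6 h and 5.35, 5.00 and 5.12 at 24 h. With CDP870 it read 4.40, 4.39 and 4.12 at 6 h and 4.57, 3.99 and 4.56 at 24 h, and untreated cells gave 4.39, 4.57 and 4.35. Every infliximab array was above every other array. IRF7 was higher at 24 h than in untreated cells by 0.72 ± 0.15 (adjusted p = 0.0104), and at 6 h its difference of 0.45 was not called (adjusted p = 0.0775). It was higher with infliximab than with CDP870 by 0.59 ± 0.15 at 6 h (adjusted p = 0.0248) and by 0.78 ± 0.15 at 24 h (adjusted p = 0.00575). Both 24 h calls were kept whichever single array was left out, and both were lost in the fit to only the arrays compared. The 6 h call against CDP870 was kept in 10 of 15 alternative settings (highest adjusted p = 0.117). The 6 h difference from untreated cells was called with array weights (0.50, adjusted p = 0.0261), under a stricter filter on low values (75th percentile) and in the fit to only the arrays compared.

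IRF1, induced by interferons and by inflammatory cytokines, read 6.27, 6.47 and 6.34 (202531_at) with infliximab at 6 h and 6.73, 6.48 and 6.26 at 24 h. It read 6.07, 6.13 and 6.21 with CDP870 at 6 h, 6.15, 5.99 and 6.21 at 24 h, and 6.01, 6.22 and 5.96 in untreated cells. The infliximab arrays all lay above the others, and replicate 5 at 24 h was the highest. The difference from untreated cells was 0.43 ± 0.12 at 24 h (adjusted p = 0.0453) and 0.30 at 6 h (adjusted p = 0.144). The 24 h call was lost without infliximab replicate 5 (0.31, adjusted p = 0.14) or 6 (0.43, adjusted p = 0.0935) and without untreated replicate 2 (0.40, adjusted p = 0.128) or 4 (0.38, adjusted p = 0.138). The other IRF1 probe set (238725_at) differed by 0.19 at 24 h (adjusted p = 0.43).

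The remaining factors were not called. IRF3, the factor that starts interferon-beta transcription after pathogen sensing, had the most negative difference of any member, with 5.79, 5.68 and 6.14 at 6 h of infliximab and 6.72, 6.24 and 5.76 at 24 h. It read 6.43, 6.25 and 6.55 with CDP870 at 6 h, 6.43, 6.26 and 6.53 at 24 h, and 6.34, 6.77 and 6.37 in untreated cells. The 6 h infliximab values lay below those of CDP870 at 6 h and of untreated cells, with differences of -0.54 ± 0.20 (adjusted p = 0.11) and -0.62 ± 0.20 (adjusted p = 0.0701). In alternative fits IRF3 was called lower than in untreated cells with array weights (-0.51), under the stricter filter (-0.62), in the fit to only the arrays compared (-0.62) and without the arrays that stood apart (-0.48), and lower than with CDP870 in 3 of these, at -0.53 to -0.54. Of the 3 IRF5 probe sets, 239412_at was called lower than in untreated cells with array weights (-0.33) and under the stricter filter (-0.35), and lower than with CDP870 in 5 alternative fits, at -0.38 to -0.39. IRF2, which antagonises IRF1 at shared sites, read 6.24 on infliximab 24 h replicate 5 and between 4.53 and 5.02 on all other arrays.

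IFIH1, the cytoplasmic sensor of long double-stranded RNA known as MDA5, was higher at 6 h of infliximab. It read 4.40, 4.55 and 4.28 with infliximab at 6 h and 3.96, 4.20 and 3.92 at 24 h (219209_at). CDP870 gave 3.76, 3.64 and 3.79 at 6 h and 4.08, 3.98 and 3.52 at 24 h, and untreated cells 3.79, 3.58 and 3.98. The 6 h infliximab arrays were the highest of the 15, and the 24 h ones overlapped with the other groups. The difference at 6 h was 0.63 ± 0.14 from untreated cells (adjusted p = 0.0166) and 0.68 ± 0.14 from CDP870 (adjusted p = 0.00982). At 24 h it was 0.24 (adjusted p = 0.362) and 0.17 (adjusted p = 0.59). The 24 h minus 6 h difference for infliximab, -0.38 ± 0.14, was not called (adjusted p = 0.337). Of 14 alternative settings, 10 kept the 6 h call against untreated cells and 12 that against CDP870 (highest adjusted p = 0.448 and 0.12). Probe sets 1555464_at and 216020_at were above the array median on no array and were not tested. In the fit with no filter they differed at 6 h of infliximab by 0.19 and 0.16 from untreated cells and by 0.22 and -0.37 from CDP870, with no call. DHX58, the sensor LGP2 that modulates IFIH1 signalling, differed by -0.12 with infliximab at 6 h and 0.05 at 24 h from untreated cells, with no call.

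In the IFIT family, whose proteins bind viral RNA and block its translation, IFIT5 and IFIT3 were called, and IFIT1 and IFIT2 were not above the filter. IFIT5 (203595_s_at) read 3.26, 3.00 and 3.00 with infliximab at 6 h and 2.69, 2.52 and 3.22 at 24 h. It read 2.07, 2.12 and 2.26 with CDP870 at 6 h, 2.27, 2.09 and 2.27 at 24 h, and 2.44, 2.07 and 2.29 in untreated cells. All 6 infliximab arrays lay above the other 9, and among the 24 h arrays replicate 7 was at the level of the 6 h arrays. IFIT5 was higher at 6 h by 0.82 ± 0.16 than in untreated cells (adjusted p = 0.00551) and by 0.94 ± 0.16 than with CDP870 (adjusted p = 0.0021). At 24 h it was higher than with CDP870 by 0.60 ± 0.16 (adjusted p = 0.0318), and its difference of 0.54 from untreated cells was not called (adjusted p = 0.0505). Without infliximab replicate 7 the 24 h difference from CDP870 was 0.40 and not called (adjusted p = 0.0671), and without CDP870 replicate 11, 12 or 13 it was 0.54 to 0.63 and not called either (adjusted p = 0.0666 to 0.123). In the fit with no filter IFIT5 had the same 3 calls. Its second probe set (203596_s_at) was above the array median on no array and was not tested. In the fit with no filter this probe set differed by 0.10 at 6 h and 0.28 at 24 h of infliximab from untreated cells, with no call. The window of IFIT5 held 3 response element matches, as did those of IFIH1 and IFI6, and 2 of the IFIT5 matches are printed above.

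IFIT3 (229450_at) read 3.82, 3.37 and 4.04 with infliximab at 6 h and 3.82, 4.05 and 3.48 at 24 h. CDP870 gave 3.03, 3.45 and 3.44 at 6 h and 3.36, 3.07 and 2.64 at 24 h, and untreated cells 3.01, 3.13 and 3.13. Infliximab and CDP870 values overlapped at 6 h and did not at 24 h. IFIT3 was higher with infliximab than with CDP870 at 24 h by 0.76 ± 0.20 (adjusted p = 0.0361), and its differences of 0.65 and 0.69 from untreated cells at 6 h and 24 h were not called (adjusted p = 0.0595 and 0.0548). Its call was lost without infliximab replicate 5 or 6 and without CDP870 replicate 12 or 13, with differences of 0.57 to 0.78 (adjusted p = 0.0804 to 0.143). The other IFIT3 probe set (204747_at) differed by 0.10. IFIT1 (203153_at) read between 0.98 and 1.76 on all arrays. Its differences in the fit with no filter ran from -0.22 to 0.07, with no call.

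The oligoadenylate synthetases make the second messenger that activates RNase L, and 0 of their 4 tested probe sets were called in any of the 6 comparisons. OAS1 (202869_at) read 2.85, 3.06 and 3.00 with infliximab at 6 h, 2.95, 3.06 and 2.69 at 24 h, and 2.91, 2.88 and 2.65 in untreated cells. CDP870 gave 2.57, 2.88 and 3.04 at 6 h and 2.81, 2.59 and 2.97 at 24 h. All groups overlapped. The 95% interval of the OAS1 difference from untreated cells was -0.14 to 0.46 at 6 h of infliximab and -0.21 to 0.39 at 24 h. OAS3 differed by 0.06 and 0.17 at these times, and the 2 probe sets of OASL by -0.16 to 0.02, while all OAS2 probe sets lay under the filter.

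Of the membrane and GTPase restriction factors, IFITM1, IFITM2 and IFITM3 were called and MX1, MX2 and BST2 were not. Of the 6 tested probe sets of these factors, 2 were higher with infliximab than with CDP870 at 6 h and 3 at 24 h. Over all tested probe sets 5.1% and 4.73% were. The IFITM proteins block fusion of enveloped viruses with endosomal membranes. Their sequences are closely alike, and probe sets with names that end in s_at or x_at can bind related transcripts, so the signal of 1 IFITM gene cannot be fully separated from that of another. IFITM3 (212203_x_at) read 7.43, 7.36 and 7.52 with infliximab at 6 h and 7.76, 7.36 and 7.46 at 24 h. It read 6.98, 6.98 and 7.06 with CDP870 at 6 h, 6.98, 6.89 and 7.12 at 24 h, and 7.17, 7.48 and 7.14 in untreated cells. The untreated values lay between those of the agents, except untreated replicate 3, which reached the infliximab range. IFITM3 was higher with infliximab than with CDP870 by 0.43 ± 0.12 at 6 h (adjusted p = 0.0351) and by 0.53 ± 0.12 at 24 h (adjusted p = 0.0144), while infliximab differed from untreated cells by 0.17 and 0.26 and CDP870 by -0.26 and -0.27, with no call. The 6 h call was kept in 7 of 15 alternative settings (highest adjusted p = 0.121). The 24 h call was lost without infliximab replicate 5 (0.41, adjusted p = 0.0544) and without CDP870 replicate 11 or 12 (0.52 and 0.48, adjusted p = 0.0532 and 0.0691).

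IFITM1 (214022_s_at) read 3.41, 3.29 and 3.26 with infliximab at 6 h and 3.14, 3.25 and 3.29 at 24 h. CDP870 gave 2.84, 2.82 and 2.72 at 6 h and 2.86, 2.92 and 2.50 at 24 h, and untreated cells 2.84, 3.21 and 2.97. The 2 agents did not overlap at either time, and untreated replicate 3 again lay within the range of infliximab at 24 h. IFITM1 was higher with infliximab than with CDP870 by 0.53 ± 0.12 at 6 h (adjusted p = 0.0137) and by 0.47 ± 0.12 at 24 h (adjusted p = 0.0301). The 24 h call was lost without infliximab replicate 6 or 7 and without CDP870 replicate 11 or 13, with differences of 0.34 to 0.52 (adjusted p = 0.052 to 0.117). Against untreated cells infliximab gave 0.31 and 0.22, and CDP870 -0.21 and -0.25, with no call. At 6 h IFITM1 was called higher with infliximab than in untreated cells with array weights (0.40, adjusted p = 0.00922) and without the arrays that stood apart, which at that time leaves out untreated replicate 3 (0.41, adjusted p = 0.0479).

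IFITM2 (201315_x_at) read 7.89, 7.98 and 8.08 with infliximab at 6 h and 8.38, 7.92 and 7.95 at 24 h, against 7.65, 7.72 and 7.73 with CDP870 at 6 h and 7.60, 7.57 and 7.64 at 24 h. Untreated cells gave 7.75, 8.05 and 7.64. It was higher with infliximab than with CDP870 at 24 h by 0.48 ± 0.13 (adjusted p = 0.0354), and at 6 h the difference of 0.28 was not called (adjusted p = 0.181). It was not called at 24 h without infliximab replicate 5 (0.33, adjusted p = 0.119) and without CDP870 replicate 11, 12 or 13 (0.46 to 0.50, adjusted p = 0.0752 to 0.111), and the 6 h difference was called in 3 alternative fits, at 0.28 to 0.29.

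MX1, a GTPase that traps viral nucleocapsids, read 2.84, 3.11 and 2.80 with infliximab at 6 h, 2.56, 2.84 and 2.84 at 24 h, and 2.72, 3.33 and 2.37 in untreated cells. With CDP870 it read 3.37, 2.65 and 3.05 at 6 h and 2.84 on each array at 24 h. MX1 was above the array median on 3 arrays, so its signal lay near the bottom of the scale. Its 95% interval for infliximab minus untreated was -0.33 to 0.55 at 6 h and -0.50 to 0.38 at 24 h. BST2, the tether that holds budding virus at the cell surface, differed from untreated cells by -0.10 and -0.06 with infliximab at 6 h and 24 h, and by -0.13 and -0.28 with CDP870. RSAD2, the antiviral enzyme viperin, lay under the filter.

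ISG15 and the genes of its conjugation were not called. ISG15 read 5.39, 5.42 and 5.57 with infliximab at 6 h and 5.66, 5.49 and 5.42 at 24 h. It read 5.37, 5.44 and 5.42 with CDP870 at 6 h, 5.23, 5.19 and 5.41 at 24 h, and 5.48, 5.62 and 5.42 in untreated cells. The infliximab and untreated values overlapped at both times. The difference from untreated cells was -0.05 ± 0.10 at 6 h of infliximab (95% interval -0.25 to 0.16) and 0.02 ± 0.10 at 24 h (95% interval -0.19 to 0.22). Infliximab minus CDP870 was 0.25 ± 0.10 at 24 h (adjusted p = 0.158). UBE2L6, the E2 enzyme that transfers ISG15, differed from untreated cells by 0.10 and 0.15 with infliximab at 6 h and 24 h, and USP18, the protease that removes it, by -0.10 and 0.06. ISG15 is the gene whose overlapping response element matches are printed above.

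**Figure D3:**
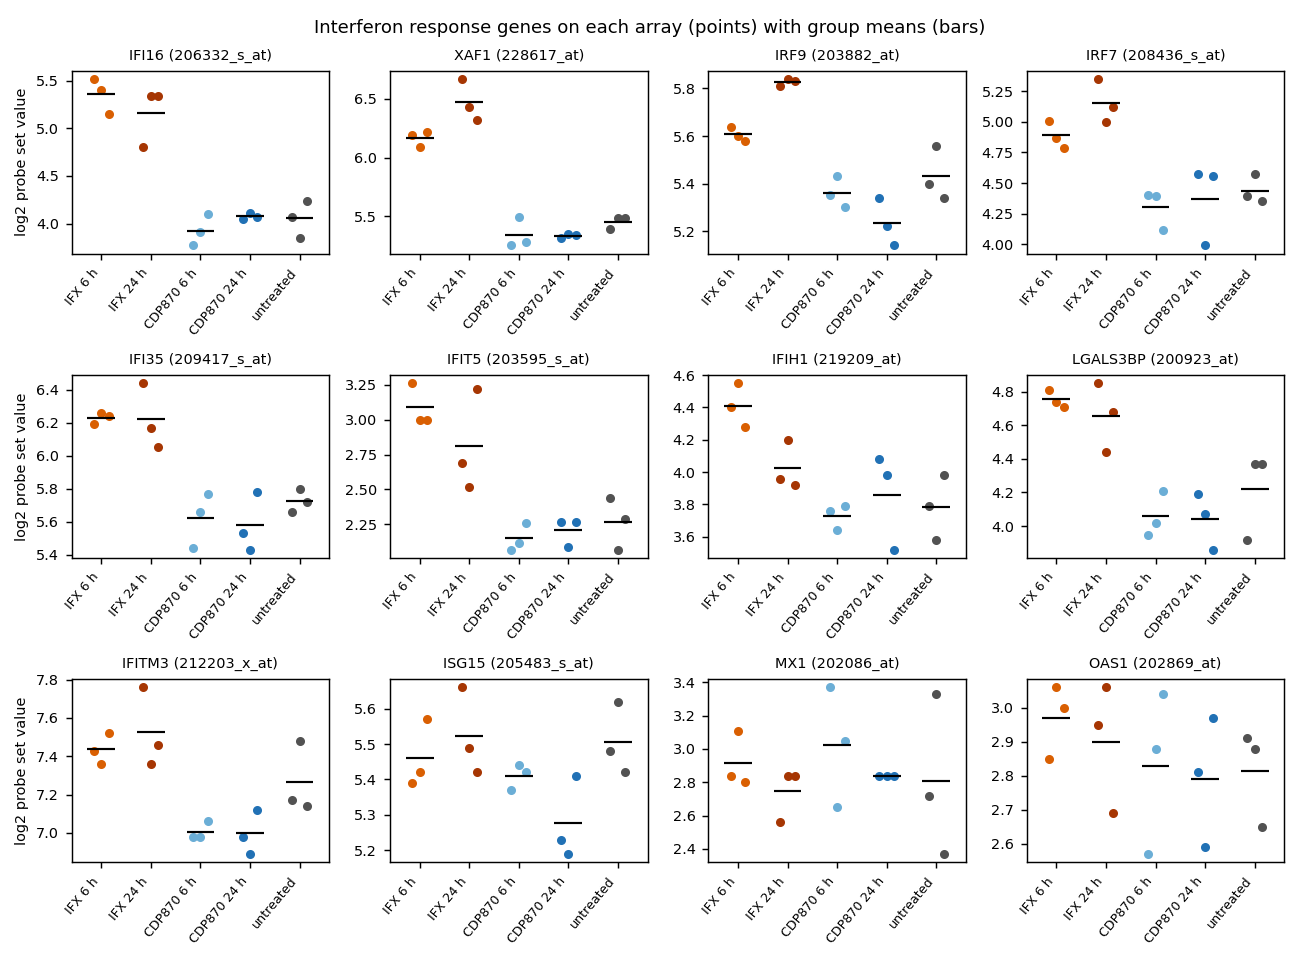
Log2 values of 12 interferon response genes on each array (points, 3 per group), with group means (bars); each panel has its own scale and is 1 probe set. In the first 9 panels infliximab arrays at 6 h, 24 h or both lie above all CDP870 arrays. ISG15, MX1 and OAS1 overlap between infliximab and untreated cells, and so do IFITM3 and, at 24 h, IFIH1. At 24 h the ISG15 values with infliximab (5.42 to 5.66) lie just above those with CDP870 (5.19 to 5.41).

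IFI16 had the largest differences of all members. This nuclear protein senses viral and damaged DNA. Its probe set 206332_s_at read 5.52, 5.40 and 5.15 with infliximab at 6 h and 4.80, 5.34 and 5.34 at 24 h. CDP870 gave 3.77, 3.91 and 4.10 at 6 h and 4.05, 4.11 and 4.07 at 24 h, and untreated cells 4.07, 3.85 and 4.24. All infliximab arrays lay above all other arrays by more than the spread within any group. IFI16 was higher than in untreated cells by 1.30 ± 0.15 at 6 h, a fold of 2.47 (adjusted p = 0.000147), and by 1.11 ± 0.15 at 24 h, a fold of 2.15 (adjusted p = 0.000557). It was higher than with CDP870 by 1.43 ± 0.15 at 6 h (adjusted p = 5.68e-05) and by 1.08 ± 0.15 at 24 h (adjusted p = 0.000586), and these 4 calls held under every alternative setting run. CDP870 itself differed from untreated cells by -0.13 at 6 h and 0.02 at 24 h.

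A second IFI16 probe set (208966_x_at) gave a similar picture, with differences of 1.24 and 0.89 from untreated cells and 1.17 and 0.99 from CDP870 at 6 h and 24 h, all called. The remaining one (208965_s_at) read 3.74, 4.40 and 4.21 at 6 h of infliximab and 3.15, 2.37 and 4.23 at 24 h, against 3.03, 2.43 and 2.82 in untreated cells. It was higher at 6 h by 1.36 ± 0.34 (adjusted p = 0.0233) and not called at 24 h (0.49, adjusted p = 0.44). Its 24 h arrays split, with replicate 7 at the 6 h level and replicates 5 and 6 within or near the untreated range.

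XAF1, an interferon-induced protein that antagonises the apoptosis inhibitor XIAP, came next in size. Its probe set 228617_at read 6.19, 6.09 and 6.22 with infliximab at 6 h and 6.67, 6.43 and 6.32 at 24 h. It read 5.25, 5.49 and 5.28 with CDP870 at 6 h, 5.31, 5.35 and 5.34 at 24 h, and 5.39, 5.48 and 5.48 in untreated cells. There was no overlap between the infliximab arrays and any others. XAF1 was higher than in untreated cells by 0.72 ± 0.10 at 6 h (adjusted p = 0.000682) and by 1.02 ± 0.10 at 24 h, a fold of 2.03 (adjusted p = 2.1e-05). Against CDP870 it was higher by 0.83 ± 0.10 at 6 h (adjusted p = 0.00018) and by 1.14 ± 0.10 at 24 h (adjusted p = 7.15e-06), and these 4 calls also held under every alternative. CDP870 differed from untreated cells by -0.11 and -0.12.

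The second tested XAF1 probe set (206133_at) had another time course. It read 5.85, 6.01 and 5.92 with infliximab at 6 h, 5.31, 4.66 and 5.57 at 24 h, and 4.77, 4.32 and 4.99 in untreated cells. It was higher at 6 h by 1.23 ± 0.21 (adjusted p = 0.00323), and its 24 h difference of 0.49 was not called (adjusted p = 0.211). The tested probe sets of XAF1 thus agreed on the direction at both times and disagreed on which time was higher. Another XAF1 probe set (242234_at) was above the array median on no array. In the fit with no filter it went the other way, with infliximab minus untreated at -0.38 at 6 h and -0.28 at 24 h, and was not called.

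**Figure D4:**
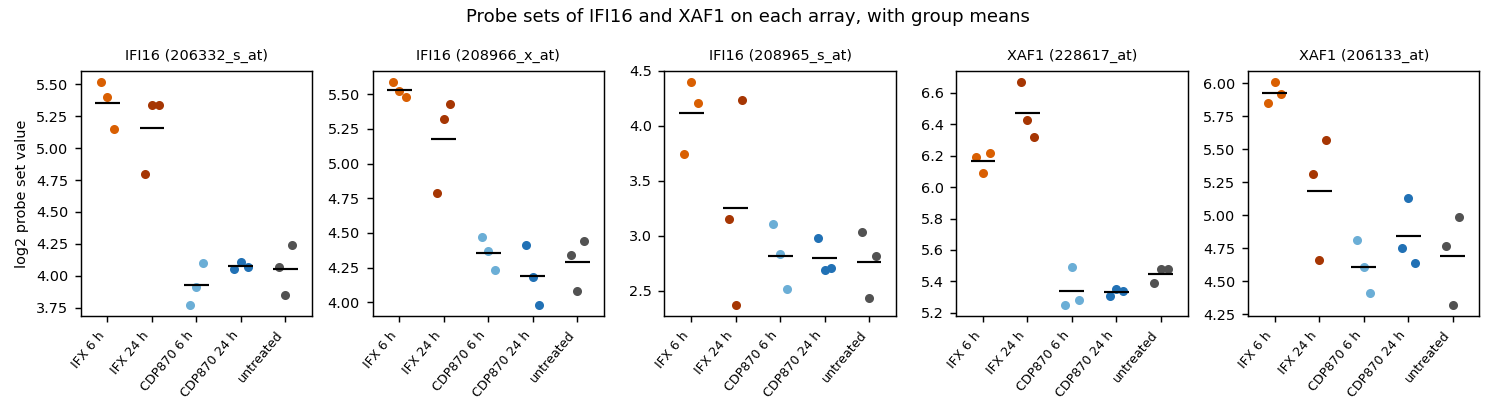
Log2 values of the 3 IFI16 and 2 XAF1 probe sets tested, on each array (points) with group means (bars). On 206332_s_at, 208966_x_at and 228617_at all infliximab arrays lie above all others, while 208965_s_at and 206133_at separate the 6 h infliximab arrays and spread widely at 24 h.

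TRIM22, a ubiquitin ligase that restricts retroviral transcription, read 5.81, 5.64 and 5.76 with infliximab at 6 h and 5.53, 5.64 and 5.70 at 24 h. CDP870 gave 5.20, 5.13 and 4.97 at 6 h and 5.26, 5.40 and 5.03 at 24 h, and untreated cells 5.40, 4.67 and 5.39. All infliximab arrays were above all others, and untreated replicate 3 was the lowest array. TRIM22 was higher at 6 h than in untreated cells by 0.58 ± 0.16 (adjusted p = 0.0397) and than with CDP870 by 0.64 ± 0.16 (adjusted p = 0.0253). Without the arrays that stood apart the difference from untreated cells at 6 h was 0.34 (adjusted p = 0.0805). Of 15 alternative settings, 6 kept the 6 h call against untreated cells and 8 that against CDP870 (highest adjusted p = 0.354 and 0.13). At 24 h it differed by 0.47 from untreated cells and by 0.39 from CDP870, with no call. The other nuclear factors, SP110, PARP9 and PARP12, were not called, and ISG20, an RNA exonuclease, lay under the filter. The 5 SP110 probe sets differed by -0.28 to 0.27 with infliximab at 6 h.

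IFI35, an interferon-induced leucine zipper protein that binds NMI, read 6.19, 6.26 and 6.24 with infliximab at 6 h and 6.44, 6.17 and 6.05 at 24 h. It read 5.44, 5.66 and 5.77 with CDP870 at 6 h, 5.53, 5.43 and 5.78 at 24 h, and 5.66, 5.80 and 5.72 in untreated cells. Again no infliximab array overlapped with the others. IFI35 was higher than in untreated cells by 0.50 ± 0.12 at 6 h (adjusted p = 0.0194) and by 0.49 ± 0.12 at 24 h (adjusted p = 0.0245). It was higher than with CDP870 by 0.61 ± 0.12 (adjusted p = 0.00669) and 0.64 ± 0.12 (adjusted p = 0.00517). The 24 h call against untreated cells was lost without infliximab replicate 5 (0.38, adjusted p = 0.0802) and without untreated replicate 2 or 4 (0.46 and 0.49, adjusted p = 0.0865 and 0.0645). At 6 h the call against untreated cells was kept in 9 of 15 alternative settings (highest adjusted p = 0.0895), and that against CDP870 in all 15.

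LGALS3BP, a secreted glycoprotein that binds galectins, read 4.81, 4.74 and 4.71 with infliximab at 6 h and 4.85, 4.44 and 4.68 at 24 h. CDP870 gave 3.95, 4.02 and 4.21 at 6 h and 4.19, 4.07 and 3.86 at 24 h, and untreated cells 3.92, 4.37 and 4.37. The infliximab values were the highest at both times. LGALS3BP was higher at 6 h by 0.53 ± 0.14 than in untreated cells (adjusted p = 0.0285) and by 0.69 ± 0.14 than with CDP870 (adjusted p = 0.00703). At 24 h it was higher than with CDP870 by 0.62 ± 0.14 (adjusted p = 0.0154), and its difference of 0.44 from untreated cells was not called (adjusted p = 0.0779). Leaving out infliximab replicate 5 (0.52, adjusted p = 0.0571) or CDP870 replicate 13 (0.53, adjusted p = 0.069) ended the 24 h call. At 6 h, 9 of 14 alternative settings kept the call against untreated cells and 13 of 14 kept that against CDP870.

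IFI6, a mitochondrial and endoplasmic reticulum protein that counters apoptosis, read 5.17, 5.18 and 5.41 with infliximab at 6 h and 4.83, 4.86 and 5.37 at 24 h. It read 4.46, 4.47 and 4.56 with CDP870 at 6 h, 4.22, 4.37 and 4.59 at 24 h, and 4.37, 5.10 and 4.53 in untreated cells. Untreated replicate 3 was close to the 6 h infliximab values. IFI6 was higher than with CDP870 at 6 h by 0.76 ± 0.18 (adjusted p = 0.0167). Its differences of 0.63 from CDP870 at 24 h (adjusted p = 0.05) and 0.59 from untreated cells at 6 h (adjusted p = 0.056) were not called. Both were called with array weights (0.71 and 0.77, adjusted p = 0.0146 and 0.00112), under the stricter filter and with arrays scaled to equal medians. Without untreated replicate 3 the 6 h difference from untreated cells was 0.80 (adjusted p = 0.0116). IFI27, a strongly interferon-responsive gene in blood, read 2.90, 3.04 and 2.72 with infliximab at 6 h and 3.23, 2.96 and 3.01 at 24 h, against 2.83, 2.90 and 2.62 in untreated cells. It differed from CDP870 by 0.26 at 6 h and 0.40 at 24 h (adjusted p = 0.209 and 0.0733). IFI44 and IFI44L lay under the filter.

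**Figure D5:**
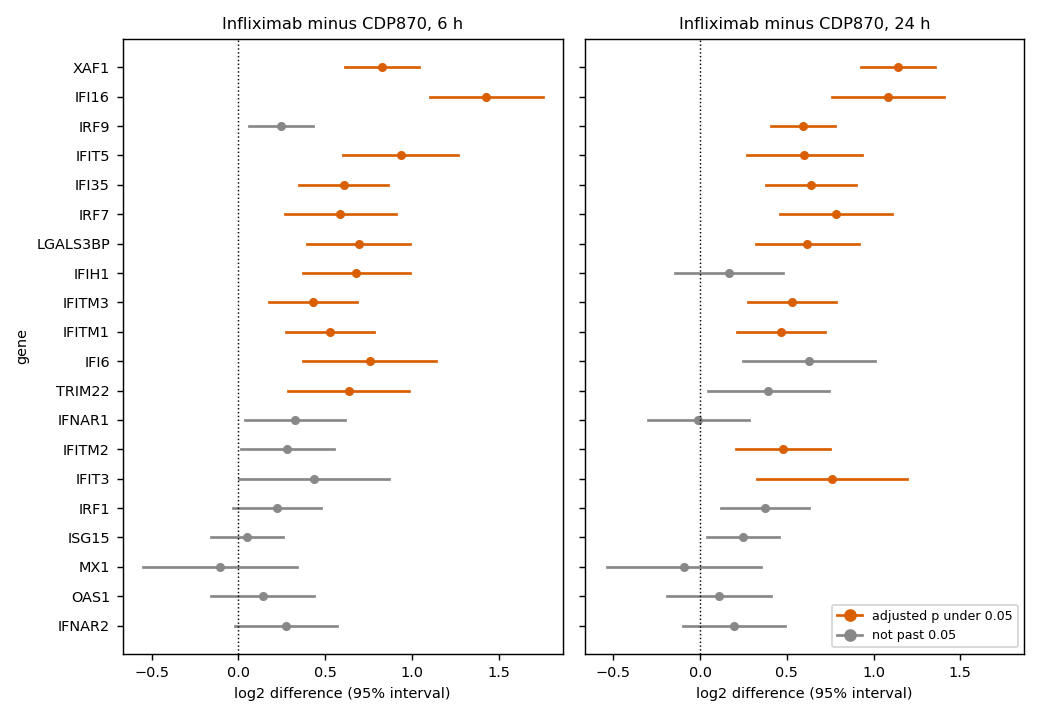
Infliximab minus CDP870 at 6 h (left) and 24 h (right), as log2 differences with 95% intervals, for the 16 genes with a call in any of 6 comparisons and for ISG15, MX1, OAS1 and IFNAR2. Each gene is shown by 1 probe set, orange where the adjusted limma p was under 0.05; IFI16 has a difference of 1.43 at 6 h and XAF1 of 1.14 at 24 h.

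In all, 19 member probe sets were not tested, and 7 genes had no tested probe set (IFIT1, IFIT2, IFI44, IFI44L, ISG20, OAS2 and RSAD2). Of these 19, 16 were above the array median on no array and the others on 1 array at most. In the fit with no filter none of them was called. The smallest adjusted p was 0.103, for IFIT2 (226757_at) in the comparison of infliximab with CDP870 at 6 h.

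The times were compared directly. Between 24 h and 6 h of infliximab 0 of 52 member probe sets were called in limma, with 0.0% over all, and 8 had an unadjusted p under 0.05, against 11.9% of all. Between the times of CDP870 0 were called, with 0.0% over all, and 3 had an unadjusted p under 0.05, against 4.97%. The interaction of agent and time also gave 0 calls, with 0.0% over all and 5 members at an unadjusted p under 0.05, against 9.14%. The infliximab counts rested on replicate 7 at 24 h, the array closest to the 6 h arrays. Leaving it out keeps replicates 5 and 6 at 24 h, which stood apart from the other arrays. Without replicate 7, 2462 of all 28897 tested probe sets were called between the infliximab times, 1831 higher and 631 lower at 24 h. Of the 52 members 5 were called, 2 higher and 3 lower. XAF1 228617_at was then higher at 24 h by 0.38 and IRF5 239412_at by 0.46, while IFI16 208965_s_at was lower with a difference of -1.36, XAF1 206133_at with -0.94 and IFIT5 with -0.48. The interaction then gave 920 calls among the 28897 (772 higher and 148 lower) and 2 among the 52 members (IFI16 208965_s_at and XAF1 206133_at, both lower). Over the comparisons with untreated cells, 3 genes were higher at both times (IFI16, XAF1 and IFI35), 5 were called at 6 h alone and 3 at 24 h alone. Against CDP870, 8 genes were higher at both times. Shares over all tested genes were not computed for these counts. A call at 1 time and not at the other is not a difference between the times, which was not called for any member with all arrays.

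Leaving out the 3 arrays that stood apart, a setting chosen after seeing the data, 9 of the 11 calls against untreated cells at 6 h and all 14 against CDP870 at 6 h were kept. That setting leaves 1 infliximab array at 24 h, replicate 7, whose spread is assumed to be that of the other groups, so calls at 24 h are not read from it. Without replicate 7 itself, 7 of 7 calls against untreated cells and 10 of 12 against CDP870 were kept at 24 h, those of IFITM1 and IFIT5 being lost. Whichever single array was left out, the calls kept against untreated cells were 5 of 11 at 6 h (IFIT5 and 2 probe sets each of IFI16 and XAF1) and 4 of 7 at 24 h (2 of IFI16, XAF1 228617_at and IRF7). Against CDP870 they were 7 of 14 at 6 h (those 5, IFI35 and LGALS3BP) and 6 of 12 at 24 h (2 of IFI16, XAF1 228617_at, IRF9, IFI35 and IRF7). With the spike-in level as a covariate, 2 of the 11 calls against untreated cells at 6 h were kept, IFI16 (206332_s_at) and XAF1 (228617_at), and 181 probe sets were called over all. That fit kept 7 of 7 calls against untreated cells at 24 h, and 7 of 14 at 6 h and 11 of 12 at 24 h against CDP870.

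Beyond the members, 67 further genes of the pathway were looked up, of which 50 had a tested probe set. Infliximab minus untreated gave 3 higher and 0 lower of the 50 at each time, against the 4.02% and 3.78% called higher over all probe sets at 6 h and 24 h, and both comparisons of CDP870 with untreated cells gave 0. IL10RB, a receptor chain shared by interferon-lambda and interleukin-10, was higher by 0.51 ± 0.08 at 6 h (adjusted p = 0.00123) and 0.43 ± 0.08 at 24 h (adjusted p = 0.00427). SAMHD1, which depletes nucleotides needed by retroviruses, was higher by 0.34 at 6 h and 0.38 at 24 h (adjusted p = 0.0319 and 0.0228). PLSCR1, a phospholipid scramblase, was higher at 6 h by 0.37, and PTPN6, a phosphatase that dampens cytokine receptor signalling, at 24 h by 0.43. Infliximab minus CDP870 gave 2 higher and 2 lower at 6 h, against 5.1% and 3.98% over all, the lower ones being ADAR, the RNA-editing enzyme, with -0.45 and ZNFX1, an RNA helicase, with -0.36. At 24 h it gave 5 higher and 0 lower, against 4.73% and 1.79% over all, with STING1, the adaptor of cytosolic DNA sensing, at 0.50 and RTP4, an interferon-induced chaperone, at 0.48 besides SAMHD1, IL10RB and PTPN6. The median difference of the 50 genes lay between -0.04 and 0.04 in all 6 comparisons.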

How the data were processed

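The data were log2 probe set values of 15 Affymetrix expression arrays, deposited by the authors as 1 table. GCRMA and the Affymetrix software GCOS 1.3.0 are named, without their roles, in the submitters' processing notes. Per the labels' protocols, biotin-labelled cRNA was made from total RNA. How arrays were normalized and corrected for background is not given in the sources used. Groups came from the sample labels, and all 15 columns matched a sample. Of 54675 probe sets, 62 controls were left out. Genes were named through the platform annotation, 1 symbol per probe set.

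The tests ran on all 15 arrays with 1 mean per group in limma 3.58.1 (R 4.3.3), with lmFit, contrasts.fit and eBayes, two-sided, and Benjamini-Hochberg adjustment over the 28897 probe sets above their array's 50th percentile on at least 3 arrays. The fit was tested on simulated data. The number of arrays limits the precision. Members and gene lists were chosen with earlier results of these data known, and the 5 promoters printed after the values were seen. Members with a call in 6 comparisons (each agent and time against 0 h, and infliximab against CDP870 at each time) are described on every array, as are genes always looked up. Pathway and marker genes are represented by 1 probe set each. Alternatives were array weights, centring on the median, quantile normalization again, no filter or a filter at the 75th percentile, gene means, only the arrays compared, the spike-in level as covariate, and leaving out arrays. Promoter windows came from RefSeq. Python 3.11.15 with matplotlib 3.10.9 drew the figures.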

Additional observations from a re-analysis of the deposited data

How the results depend on the processing

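Of the 44 calls of member probe sets, 13 were kept under every setting run and 0 changed sign; the cause of the losses was not tested. Kept were 43 calls after centring each array on its median, 43 after quantile normalization again, 41 with array weights, 41 with the mean of a gene's probe sets, 39 with no filter, 31 of the 31 still tested under the stricter filter, 32 without the 3 arrays that stood apart (a setting with 1 infliximab array at 24 h), 28 in fits to only the arrays compared and 27 with the spike-in level as covariate. Leaving out 1 array at a time kept 183 of 264. The number of member probe sets called with infliximab at 6 h against untreated cells was 11, with array weights 19 (17 higher and 2 lower, where 4588 of all 28897 probe sets were called against 2432 without weights), with the spike-in covariate 2, and 6 to 10 when 1 array was left out (6 without infliximab replicate 8, 7 without replicate 9 or 10). At 24 h it was 7, in a fit to only those arrays 2, and 4 to 9 when 1 array was left out (4 without untreated replicate 2 or 4). Against CDP870 at 6 h it was 14, with the spike-in covariate 7, and 9 to 10 when 1 array was left out (9 without infliximab replicate 9 or 10 or CDP870 replicate 16). Against CDP870 at 24 h it was 12, in a fit to only those arrays 3, and 7 to 13 when 1 array was left out (7 without CDP870 replicate 13). Between the infliximab times leaving out 1 array gave 0 to 5 (5 without replicate 7 at 24 h) and for the interaction 0 to 2 (2 without the same array). Between the CDP870 times array weights gave 1 call, OASL 205660_at with -0.60. Fits to only the arrays compared have fewer arrays to estimate the spread. No paired analysis was possible because the groups share no replicate numbers. Signal near the bottom of the scale limits what can be said of the 19 probe sets under the filter. The same limit applies to MX1, OAS1 and IFI27, above the array median on 3, 3 and 4 arrays.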
